A study of Mus musculus with 20 samples.

Results

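The actin isoforms measured here were Actb, Actg1, Acta2, Acta1 and Actc1, 5 of the 10843 genes that the array's probe annotation names. They were taken as the genes of 30 probes, of 42624 on the array, that list 1 actin gene and no other. Actb had 13 probes, Actc1 had 10, Acta2 had 4, Acta1 had 2 and Actg1 had 1. All 30 probes and all 5 genes passed the filter on missing values. Transcripts were measured on 20 two-colour arrays in mouse fibroblast cell lines that carry the heat shock factor 1 gene (HSF1 +/+, here WT) or lack it (HSF1 -/-, here KO). HSF1 is the main transcription factor of the heat shock response. Each line was measured on 3 arrays at 0 h of heat shock, that is unheated, and on 1 array each at 0.5, 1, 2, 3, 4, 6 and 8 h. No temperature is given in the sources used here, nor how the lines were made or whether a line is 1 clone. Nothing in the labels ties the unheated arrays to different cultures. All p-values therefore rest on the variation among these arrays, which may be technical.

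Every array compared its sample, in Cy5, with the same pool of mRNA from heated (1 h) and unheated mouse fibroblasts, in Cy3, and no array had the dyes swapped. Each value is the log2 of the sample's signal over the pool's, centred on the median of its array, so 0 means that a probe stood where the typical probe of that array stood. A ratio to a pool is not a level. It compares arrays for 1 gene and does not rank the isoforms by abundance. In bulk RNA, fewer transcripts per cell and fewer cells that express a gene cannot be told apart. Heated arrays were grouped as early (0.5 to 2 h, n = 3 per line) and late (3 to 8 h, n = 4 per line). The arrays of such a group are different times and not replicates, so their spread includes change over time. The 2 genotypes are 2 cell lines, and genotype cannot be told apart from any other difference between them. The scanned images of each line were numbered in a block of their own, so an order of processing and the genotype cannot be told apart either.

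Actin is the protein of the thin filaments that give cells their shape and let them move and contract. Actb and Actg1 encode the cytoplasmic beta and gamma actins found in nearly all cells. Acta2 encodes the smooth muscle alpha actin, which contractile fibroblasts (myofibroblasts) also make. Acta1 and Actc1 encode the alpha actins of skeletal and heart muscle. The proteins are nearly alike and the coding sequences of the transcripts are similar, so a cDNA probe of an abundant isoform can bind transcripts of another. Transcription of the actin genes is controlled to a large part by serum response factor (SRF), which binds a DNA element called the CArG box. Its cofactors, the MRTFs, are held in the cytoplasm by free actin monomers and are released when monomers enter filaments.

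CArG boxes stood close to the start of the actin genes for which RefSeq promoter windows (GRCm38.p6, 250 bases before to 50 bases after the start) were at hand, 4 of the 5. The stretches below are shown because the boxes, in capitals, are the element these genes share. They were read 5′ to 3′ on the gene's own strand, the minus strand, with 12 bases on either side. The window's start was the end of the gene's annotated span for 3 genes. For Acta2 it was chr19:34255373, a start 212 bases inside that span, so the Acta2 stretch lies within the annotated gene.
Actg1, chr11:120348564-120348597: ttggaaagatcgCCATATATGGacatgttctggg
Acta2, chr19:34255386-34255469: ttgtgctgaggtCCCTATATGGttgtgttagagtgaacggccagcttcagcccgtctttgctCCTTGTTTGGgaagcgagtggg
Acta1, chr8:123894827-123894992: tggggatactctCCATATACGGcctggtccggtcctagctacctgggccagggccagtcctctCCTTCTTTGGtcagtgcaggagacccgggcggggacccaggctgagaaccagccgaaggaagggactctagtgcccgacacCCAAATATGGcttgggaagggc
Actc1, chr2:114052901-114053062: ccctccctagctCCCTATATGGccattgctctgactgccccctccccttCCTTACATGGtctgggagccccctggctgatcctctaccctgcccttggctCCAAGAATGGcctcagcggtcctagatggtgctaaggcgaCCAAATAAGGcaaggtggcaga

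A full CArG box was found in Actg1 (bases -90 to -81, counted from the start), Acta1 (-73 to -64) and Actc1 (-47 to -38), and in 1.63% of the 32851 promoter windows of all genes. Boxes with 1 C or G in the core, found in 8.5% of windows, stood at -84 and -34 in Acta2, at -205 and -154 in Acta1 and at -175, -138 and -87 in Actc1. The paired heat shock element GAANNTTC (7.86% of windows) or TTCNNGAA (8.52%), searched on both strands, had no match in these 4 windows. The muscle element CATTCC (14.7% of windows) matched in Acta1 and, on the other strand, in Acta2. The TATA box sequence TATAAA (13.6% of windows) matched at -7 to -2 in Acta1 and, past the start, at 34 to 39 in Actc1. All positions count from the start of the RefSeq window, and whether transcription begins there was not tested. A match is a description of letters in a window of 300 bases and shows no binding. The genes lie on 5 chromosomes in GRCm38.p6, Actb at chr5:142903115-142907976, Actg1 at chr11:120345687-120348495, Acta2 at chr19:34240336-34255585, Acta1 at chr8:123891758-123894775 and Actc1 at chr2:114047282-114052875.

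In the heated arrays, Actb, Acta2 and Acta1 were 1.66-fold to 1.86-fold lower in KO than in WT cells. In KO cells, Actb, Acta1 and Actg1 fell 1.94-fold to 2.71-fold from 0 h to the late times. In unheated KO cells and in late WT cells Actb alone passed the test, lower by 1.88-fold and 1.72-fold. No actin gene was called higher in any comparison, and none passed the test at the early times in either line. The late responses of the 2 lines were not shown to differ for any member (limma, adjusted p of 0.731 or more). Leaving out 1 of the 20 arrays lost the Actb call at 0 h in 4 cases and in late WT cells in 6. It lost the Actg1 call in late KO cells in 7.

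The heat shock label was checked on Hspa1a, the classical HSF1 target that encodes the inducible HSP70 chaperone. It rose by 5.83 ± 0.75 (log2, ± SE) in WT cells at the late times (limma, adjusted p = 0.00184) and differed by -0.01 ± 0.75 in KO cells (adjusted p = 0.999).

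Actb, the beta actin gene that is often used as a reference in expression assays, was the best measured of the members. On the 3 unheated WT arrays its centred log2 ratio was 2.58, 2.40 and 2.76. On the 3 unheated KO arrays it was 1.72, 1.50 and 1.79. The groups did not overlap, and every KO array lay below every WT array. The difference was -0.91 ± 0.23 (log2, ± SE, n = 3 against 3), 1.88-fold lower in KO, with a 95% confidence interval of -1.40 to -0.42 (limma's moderated test with Benjamini-Hochberg adjustment over 10625 genes, used throughout, adjusted p = 0.0252). In this comparison 3.6% of all genes were called lower and 3.04% higher, and Actb was the 1 member of 5 called. The call was lost without WT array 3 (adjusted p = 0.0714) and without any 1 of the 3 KO arrays (0.0545, 0.0963 and 0.0540, in their numbered order). It was also lost when array widths were made equal, by quantile normalization (-0.53, adjusted p = 0.168) or by scaling (-0.51, adjusted p = 0.236), with no centring (-0.80, adjusted p = 0.0505), and with only the compared groups fitted (adjusted p = 0.0811).

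In heated WT cells Actb stood at 2.51, 1.84, 1.67, 2.06, 1.47, 1.97 and 1.69 at 0.5, 1, 2, 3, 4, 6 and 8 h. In heated KO cells it stood at 2.15, 1.68, 1.40, 0.95, 0.60, 0.47 and 0.83 at the same times. KO lay below WT at all 7 times, and the gap was smallest at 1 h (-0.16) and widest at 6 h (-1.50). Over the 7 times KO was lower by 0.73 ± 0.15 on the log2 scale, 1.66-fold (adjusted p = 0.00469). In this comparison 6.07% of genes were called lower and 4.19% higher, and 3 of the 5 members were called lower and 0 higher.

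Against its own 0 h arrays, Actb in WT cells was lower at the late times by 0.78 ± 0.22 (log2), 1.72-fold (adjusted p = 0.0406, with 3.67% of genes called lower and 3.6% higher, and Actb the 1 member called). All 4 late WT arrays lay below all 3 unheated ones. This call was lost without any 1 of the 3 WT 0 h arrays or of the WT 4, 6 or 8 h arrays, with adjusted p of 0.0501 to 0.0995, and on equalized array widths (-0.59 and -0.40, adjusted p = 0.0997 and 0.324). It was also lost with no centring (adjusted p = 0.0637), with only the compared groups fitted (0.101) and without the KO 6 and 8 h arrays (0.0537). In KO cells Actb fell by 0.96 ± 0.22 (log2), 1.94-fold (adjusted p = 0.00970), again with no overlap. This call held without any single array and was lost without the KO 6 and 8 h arrays together (-0.90, adjusted p = 0.103). Here 6.8% of genes were called lower and 3.86% higher, and 3 of the 5 members were called lower. The 6 groups ran from WT 0 h (mean 2.58) through WT early (2.01), WT late (1.80), KO early (1.74) and KO 0 h (1.67) to KO late (0.71). Each of the first 5 overlapped its neighbour in this order, and only KO late stood apart from its neighbour on every array.

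Actg1, the gamma actin gene of non-muscle cells, rests on 1 probe and varied most among the gene values, the others of which average several probes. Its values on the unheated arrays were 2.80, 3.57 and 3.18 in WT and 2.92, 2.72 and 2.63 in KO, which overlap (difference -0.43 ± 0.47, adjusted p = 0.669). Heated WT cells gave 3.60, 2.42, 2.44, 1.92, 3.41, 3.32 and 1.86 from 0.5 to 8 h, with no steady direction. Heated KO cells gave 3.98, 3.26, 2.31, 1.87, 0.97, 1.48 and 0.94. The KO values were at their highest at 0.5 h, and the 4 late ones lay below all unheated KO arrays. KO was above WT at 0.5 and 1 h (by 0.38 and 0.84) and below it at the other 5 heated times, by up to 2.44 at 4 h. Over the 7 times the difference of -0.59 ± 0.31 did not pass (adjusted p = 0.271).

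In KO cells Actg1 fell by 1.44 ± 0.44 (log2) from 0 h to the late times, 2.71-fold, with a confidence interval of -2.36 to -0.52 (adjusted p = 0.0430). The call was lost on leaving out 1 array in 7 cases. These were any of the 3 KO 0 h arrays, the KO 1 h array and the KO 4, 6 and 8 h arrays, where the adjusted p lay between 0.0517 and 0.147. It was also lost with no centring (-1.37, adjusted p = 0.0720) and without the KO 6 and 8 h arrays (-1.34, adjusted p = 0.245). In WT cells the late difference was -0.56 ± 0.44 (adjusted p = 0.461). For Actg1, KO late (mean 1.32) was the group that stood lowest, and the other 5 group means lay between 2.63 and 3.18 with overlapping arrays.

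**Figure D1:**
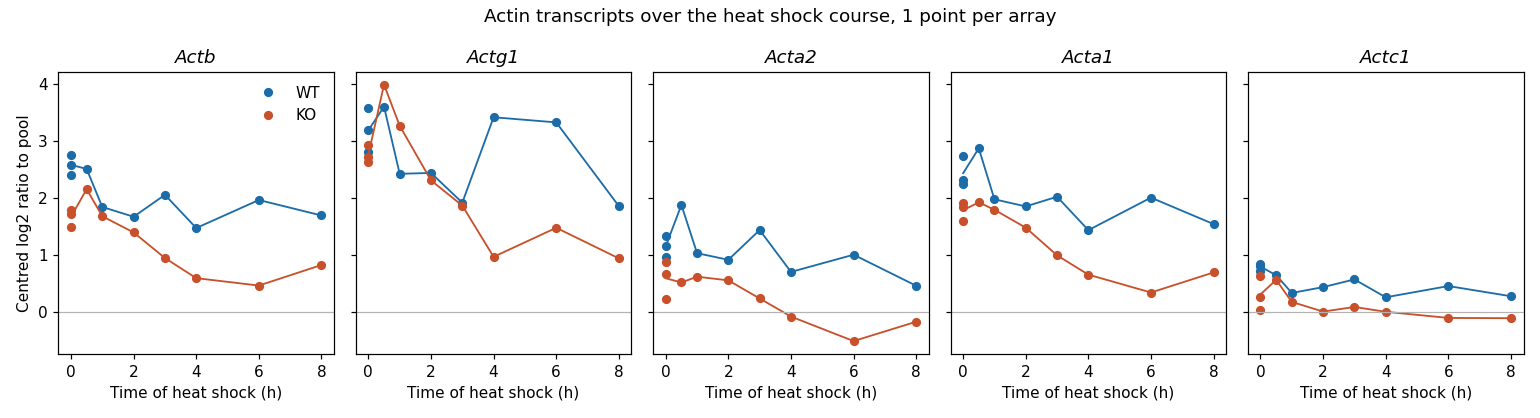
Centred log2 ratio to the pool (y axis) against hours of heat shock (x axis) for the 5 actin genes, 1 point per array, WT in blue and KO in orange, with lines through the mean at each time. In Actb, Acta2 and Acta1 the KO points lie below the WT points at every time and are lowest at 4 to 8 h. Actg1 scatters most, and its KO points fall from 3.98 at 0.5 h to 0.94 at 8 h.

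Acta2, the smooth muscle alpha actin gene, was lower in heated KO cells. Its unheated values were 1.34, 1.16 and 0.97 in WT and 0.66, 0.24 and 0.89 in KO. All KO arrays lay below all WT arrays, but the difference of -0.56 ± 0.27 did not pass (adjusted p = 0.254). In heated WT cells it stood at 1.88, 1.03, 0.92, 1.44, 0.71, 1.01 and 0.46 from 0.5 to 8 h. In heated KO cells it stood at 0.52, 0.62, 0.56, 0.24, -0.07, -0.50 and -0.16. KO was lower at every heated time, by 0.36 at 2 h to 1.51 at 6 h, and overall by 0.89 ± 0.18 on the log2 scale, 1.86-fold (adjusted p = 0.00331). This was the largest of the members' differences in that comparison.

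Neither line's change of Acta2 with heat passed the test. The late difference was -0.25 ± 0.26 in WT (adjusted p = 0.581) and -0.72 ± 0.26 in KO (adjusted p = 0.0818). Without the WT 0.5 h array, which held its highest value, the KO late difference passed (-0.72, adjusted p = 0.0446). The order of groups was WT early (mean 1.28), WT 0 h (1.16), WT late (0.90), KO 0 h (0.60), KO early (0.57) and KO late (-0.12), and neighbours overlapped except that all late KO arrays lay below all early KO arrays.

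Acta1, the skeletal muscle alpha actin gene, followed Actb. Its unheated values were 2.25, 2.31 and 2.74 in WT and 1.84, 1.60 and 1.91 in KO, without overlap (difference -0.65 ± 0.25, adjusted p = 0.148). In heated WT cells it stood at 2.87, 1.98, 1.85, 2.02, 1.44, 2.01 and 1.54 from 0.5 to 8 h. In heated KO cells it stood at 1.92, 1.79, 1.48, 1.00, 0.66, 0.35 and 0.70. KO lay below WT at all 7 heated times and was lower by 0.83 ± 0.17 on the log2 scale, 1.78-fold (adjusted p = 0.00338).

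In KO cells Acta1 fell by 1.11 ± 0.24 (log2) at the late times, 2.16-fold (adjusted p = 0.00648), with every late array below every unheated one. This call held without any single array and was lost without the KO 6 and 8 h arrays together (-0.96, adjusted p = 0.102). In WT cells the late difference was -0.68 ± 0.24 (adjusted p = 0.0914), and all 4 late arrays lay below the 3 unheated ones. It passed without the WT 0.5 h array (-0.68, adjusted p = 0.0415). The group means ran from 2.43 (WT 0 h) through 2.23 (WT early), 1.79 (KO 0 h), 1.75 (WT late) and 1.73 (KO early), which overlapped with their neighbours, to 0.68 (KO late), which did not.

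Actc1, the heart muscle alpha actin gene, moved least as the mean of its 10 probes. Its unheated values were 0.85, 0.81 and 0.73 in WT and 0.26, 0.04 and 0.64 in KO, without overlap (difference -0.48 ± 0.17, adjusted p = 0.111). In heated WT cells it lay between 0.26 (4 h) and 0.65 (0.5 h), with a median of 0.44. In heated KO cells it lay between -0.10 (6 and 8 h) and 0.57 (0.5 h), with a median of 0.01. KO was below WT at all 7 heated times, by 0.08 to 0.56, and the overall difference of -0.33 ± 0.11 did not pass (adjusted p = 0.0749). It passed without the KO 0.5 h array (-0.40, adjusted p = 0.0321). The late differences were -0.40 ± 0.16 in WT (adjusted p = 0.139) and -0.34 ± 0.16 in KO (adjusted p = 0.203). The probes behind this mean did not move alike. Probe 25946 averaged 1.78 on unheated WT and 0.12 on late KO arrays, while probe 7951 averaged -0.59 and -0.31.

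Counts of members without overlap were read against all genes. In the unheated arrays, 4 of 5 members had every KO array below every WT array, all but Actg1, against 11.9% of genes. In the heated arrays the same 4 members had KO below WT at all 7 times, against 6.55% of genes. All 4 late KO arrays lay below all 4 late WT arrays in those 4 members, against 8.53%. In WT cells, late arrays lay wholly below 0 h arrays for Actb, Acta1 and Actc1 (10.7% of genes), and in KO cells for Actb, Actg1 and Acta1 (16.4%). These comparisons share arrays with each other, and the 5 genes may share probe binding, so the counts are not independent.

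**Figure D2:**
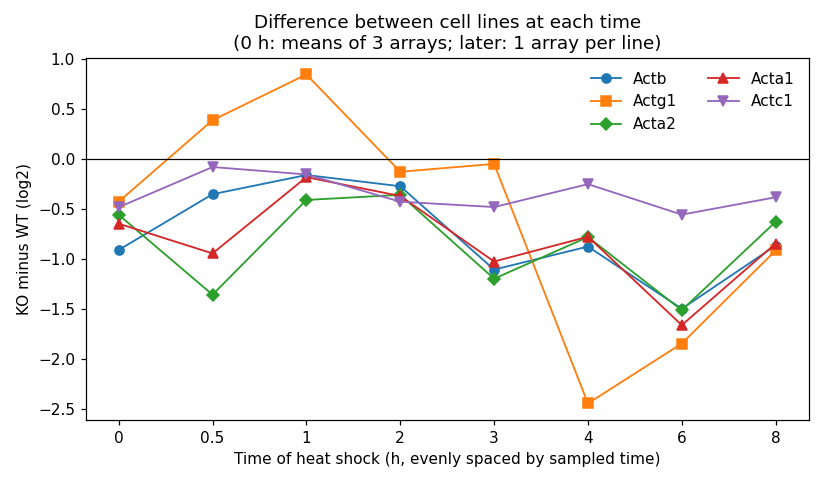
KO minus WT difference of the centred log2 ratio (y axis) at each sampled time (x axis, evenly spaced), 1 line per actin gene. At 0 h each point is a difference of means of 3 arrays and later of 1 array per line. All genes but Actg1 lie below 0 throughout, and the lowest point is Actg1 at 4 h (-2.44).

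At the early times, up to 2 h, 0 of the 5 members passed the test in either line. The early differences from 0 h in WT cells ran from -0.57 ± 0.23 (Actb, adjusted p = 0.372) to 0.12 ± 0.27 (Acta2, adjusted p = 0.899). In KO cells they ran from -0.06 ± 0.17 (Actc1, adjusted p = 0.967) to 0.43 ± 0.47 (Actg1, adjusted p = 0.890). Over all genes limma called 4 in WT cells (0.0376%) and 0 in KO cells, where 793 had an unadjusted p under 0.05, so these comparisons called few genes of any kind. No other tool was run.

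Whether the lines responded differently was tested as the difference between their responses. For the late response, WT minus KO was 0.18 ± 0.31 for Actb (adjusted p = 0.911, interval -0.48 to 0.83) and 0.88 ± 0.62 for Actg1 (adjusted p = 0.731, interval -0.42 to 2.19). It was 0.47 ± 0.36 for Acta2, 0.43 ± 0.34 for Acta1 and -0.06 ± 0.23 for Actc1 (adjusted p = 0.768, 0.773 and 0.964). Over all genes 10 were called (0.0941%). For the early response the 5 values lay between -0.79 and 0.15, with adjusted p of 0.611 or more, and 0 genes were called, with 889 at an unadjusted p under 0.05. So a fall called in KO and not in WT cells, as for Acta1 and Actg1, was not shown to differ between the lines. For Actg1 and Acta1 the intervals of the difference (-0.42 to 2.19 and -0.28 to 1.14) reach values as large as the falls in KO cells.

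**Figure D3:**
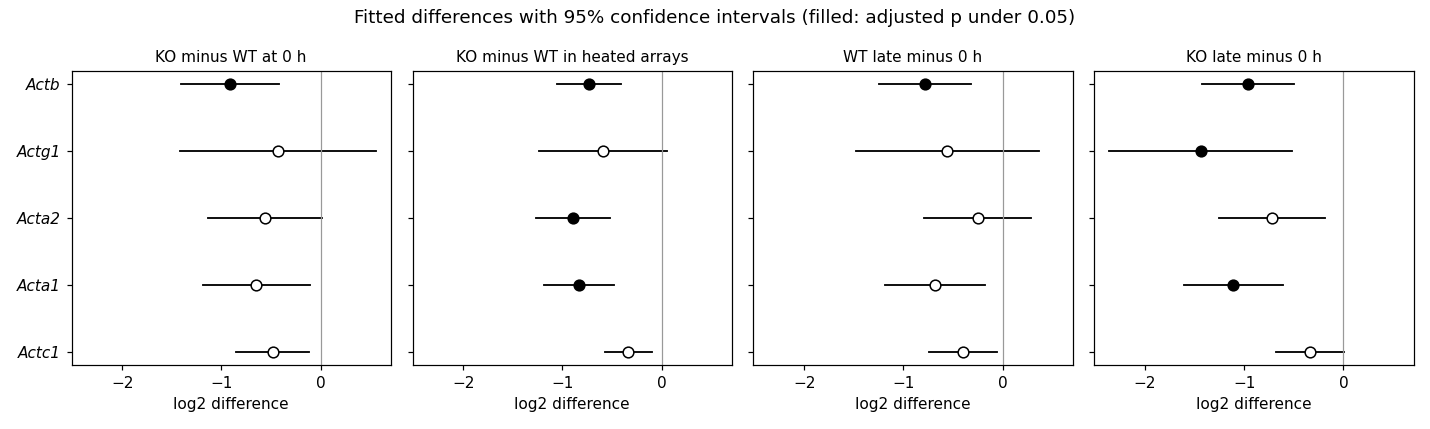
Fitted log2 differences (x axis) of the 5 actin genes (rows) in 4 comparisons (panels), with 95% confidence intervals as lines. Filled points passed an adjusted p of 0.05: Actb in all 4 panels, Acta2 and Acta1 in heated KO against WT, and Actg1 and Acta1 in late against unheated KO cells.

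Each probe was then fitted on its own, since isoforms can bind each other's probes. In the heated comparison 18 of 30 actin probes were called lower in KO, against 7.41% of 40453 probes called lower. At 0 h 9 of 30 were called lower (5.52% of probes), in late WT cells 6 (4.63%) and in late KO cells 15 (7.3%). In each of these 4 comparisons 0 actin probes were called higher, where 2.48%, 3.04%, 5.93% and 6.64% of all probes were called higher at 0 h, heated, in late WT and in late KO cells. At 0 h the count was 3 on quantile-normalized and on width-scaled values, and in late WT cells 3 and 1. Probes of 1 gene are repeat measures on the same arrays, and 10 of the 18 heated calls were of Actb. These probe counts are therefore not independent.

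The 13 Actb probes moved in 1 direction. All 13 had differences below 0 at 0 h (-1.38 to -0.63), in heated KO against WT (-1.04 to -0.32, 10 of them called), in late WT cells (-1.06 to -0.34) and in late KO cells (-1.39 to -0.42). Probe 11719 departed on 1 array, WT at 0.5 h, where it read -0.17, and its correlation with the other Actb probes over 20 arrays was 0.502. For the remaining 12 this correlation was 0.834 to 0.974. A pair of Actb spots with the same source sequence differed by 0.27 on average, as an absolute value, over 19 arrays.

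The 4 Acta2 probes split into 2 steady and 2 noisy ones. Probe 22286 read 2.52, 2.23 and 2.59 on unheated WT arrays and 1.05, 1.19 and 1.08 on unheated KO arrays. On late KO arrays it fell to 0.17, -0.16, -0.67 and -0.62. It was called lower in KO at 0 h (-1.34 ± 0.28, adjusted p = 0.00533), in the heated arrays (-1.65 ± 0.18) and in late KO cells (-1.43 ± 0.26, adjusted p = 0.00116). Probe 16521 was called in the last 2 of these (-1.28 ± 0.17 and -0.84 ± 0.25). Probes 16008 and 28567, with an SD of 0.98 and 1.51 within the 0 h groups, were called in none, and 16008 lay slightly above 0 in the heated comparison (0.21 ± 0.30). The gene mean of Acta2 averages these, so its fold of 1.86 is smaller than that of either steady probe.

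Both Acta1 probes, 24156 and 32206, were called lower in heated KO cells (-0.71 ± 0.17 and -0.95 ± 0.18) and in late KO cells (-0.99 ± 0.25 and -1.23 ± 0.25). Of the 10 Actc1 probes, 4 were called lower in the heated comparison (6151, 25946, 27560 and 38546, -0.63 to -0.86), 2 lay above 0 and none of these 2 was called. Probe 27560 stood at 2.47, 2.37 and 1.96 in unheated WT cells and at 1.19, 0.95 and 0.93 in unheated KO cells, a difference of -1.24 ± 0.25 (adjusted p = 0.00428). It did not fall further in late KO cells (0.08 ± 0.23, adjusted p = 0.868). Probe 16094 gave the largest 0 h difference (-2.54), which rests on WT arrays of 2.66 and 0.63 and a missing value on the other. A second spot of its source sequence, 7951, read -0.77, -0.59 and -0.42 on those arrays, and the pair correlated with r = 0.04 over 19 arrays. With probes of a 0 h SD of 0.5 or more left out, a choice made after seeing the data, the heated difference became -0.52 for Actc1 (adjusted p = 0.00261) and -1.47 for Acta2.

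**Figure D4:**
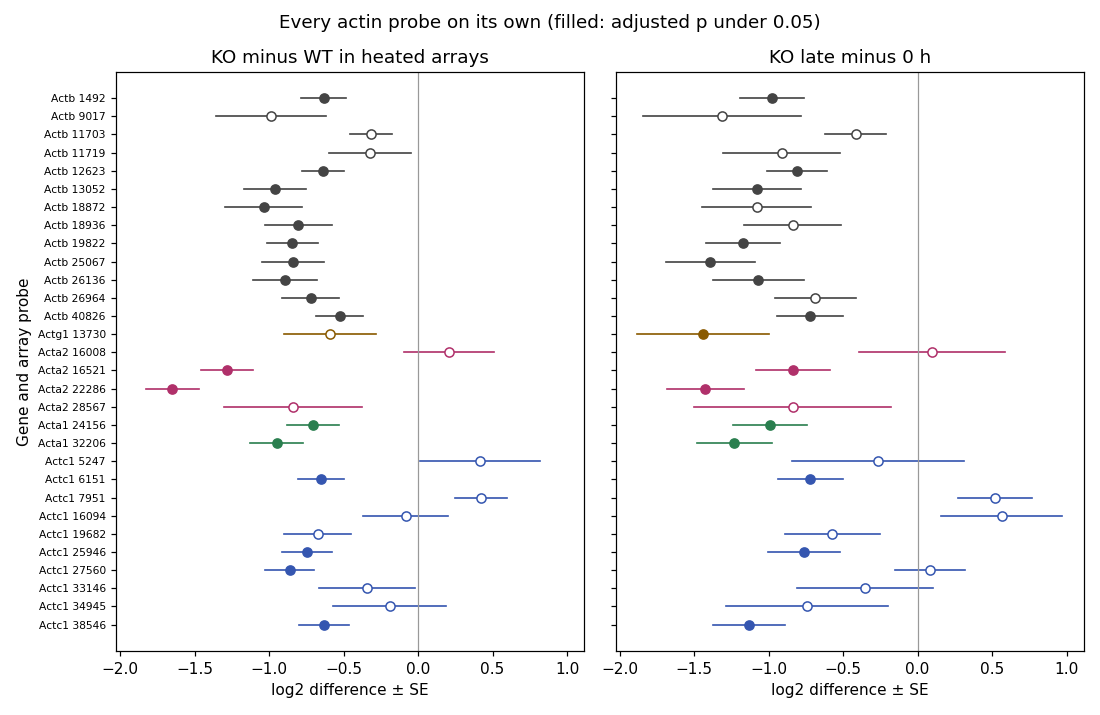
Log2 difference with its SE (x axis) for each of the 30 actin probes (rows, labelled by gene and probe number, coloured by gene) in heated KO against WT arrays and in late against unheated KO arrays. Filled points passed an adjusted p of 0.05, 18 in the first panel and 15 in the second, all below 0.

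The isoforms moved together over the 20 arrays. Actb and Acta1 correlated with r = 0.970, Actb and Actc1 with 0.910, Acta2 and Acta1 with 0.909, Actb and Acta2 with 0.866, and the weakest pair was Actg1 and Acta2 (0.610). Within the 10 WT arrays these were 0.912, 0.915, 0.742, 0.613 and 0.306, and within the 10 KO arrays 0.977, 0.807, 0.936, 0.876 and 0.743. The arrays share the pool and the centring, and the genes can share bound transcripts, so these are descriptions. Muscle transcripts bound by the Acta1 and Actc1 probes cannot be told apart from cytoplasmic actin transcripts bound by them. Acta2 probes 22286 and 16521 had r of 0.917 and 0.837 with the Actb probes. With the other Acta2 probes, including the noisy ones, r was 0.736 and 0.81. Actc1 probes 6151, 25946, 27560 and 38546 had 0.866, 0.9005, 0.6995 and 0.781 with Actb. With the other Actc1 probes they had 0.799, 0.794, 0.562 and 0.695. Acta1 probes 24156 and 32206 had 0.954 and 0.970 with Actb and 0.969 with each other. Whether these probes bound Actb transcripts was not tested.

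Differences between isoforms on the same array do not move with the centring. They can move with array width, measured as the median absolute centred value. It was 0.46 to 0.57 on late KO arrays and 0.73 to 0.75 on unheated WT arrays. Set to 0 at the WT 0 h mean, Acta1 minus Actb stayed between 0.10 and 0.37 in the other 5 group means. Acta2 minus Actb was 0.69 ± 0.09 (SD) in early WT cells and 0.59 ± 0.17 in late KO cells. Actc1 minus Actb was 0.38 ± 0.13 in late WT and 1.05 ± 0.19 in late KO cells, the largest such mean. Before it was set to 0, it ran from -2.03 to -1.59 on unheated WT arrays and from -0.93 to -0.57 on late KO arrays. The Actc1 mean includes probes 5247 and 7951, whose r with the other Actc1 probes was -0.30 and -0.39. Actg1 minus Actb was 0.84 ± 0.47 in early KO cells and 0.00 ± 0.43 in late KO cells. These are descriptions without a test, and the part of array width in them was not tested.

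Other genes resembled the actins closely. By Pearson r over 20 arrays among 9458 other genes with a value on each, the 5 nearest to Actb were Acta1, Prelid1 (0.955), H2az1, Rbm3 and Tsnax. Nearest to Acta1 were Actb, Tubb6 (0.962), Myl9 (0.961), which encodes a regulatory light chain of non-muscle and smooth muscle myosin, Prelid1 and Eif4a1. Nearest to Acta2 were Cisd2 (0.957), Pdia6, Rpn2, Esyt1 and Prelid1, and nearest to Actc1 were Actb, Prelid1 (0.907), Pfn1 (0.903), Bok and Ldha. Actg1 had lower values, led by Tmbim6 (0.856) and Kdelr2 and followed by the tubulin genes Tuba1c (0.814) and Tuba1a (0.807) and by Cd81.

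Lists of related genes were read against the share of all genes called lower, 3.6% at 0 h, 6.07% in heated KO against WT, 3.67% in late WT and 6.8% in late KO cells. Actin needs the chaperonin CCT and its helper prefoldin to fold. The list of this machinery also held Pdcl and Pdcl3, which encode no subunit of either. Of 15 measured genes of this machinery, 5 were lower in unheated KO cells (median -0.61, against 0.05 for all genes) and 8 in heated KO cells (median -0.49, against 0.02). None was higher. In the heated comparison the CCT subunits Cct3 (-1.15 ± 0.12, adjusted p = 4.19e-06), Cct2 (-0.98 ± 0.12), Cct6a (-1.24 ± 0.16) and Tcp1 (-0.998 ± 0.16) led. At 0 h the CCT subunits Cct6a (-1.13), Tcp1 (-0.97) and Cct3 (-0.74) and the prefoldin subunit Vbp1 (-1.004) led. The count was 3 without WT 0 h array 3, 2 and 1 without KO 0 h arrays 2 and 3, and 8 without the WT 4 h array. It was 2 on equalized widths by either method, 0 with only the compared groups fitted, and 9 with 1 probe per gene. Cct3 also fell in late KO cells (-1.02 ± 0.17, adjusted p = 0.00100), as 1 of 3 called, a count that was 1 without KO 0 h array 1, with no centring and without the KO 6 and 8 h arrays.

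Of 22 measured genes for proteins that bind actin monomers or turn filaments over, 8 were called lower in heated KO cells and 0 higher (median -0.36), where 6.07% of all genes were lower and 4.19% higher. Among them were the monomer-binding Pfn1 (profilin 1, -0.64 ± 0.16, adjusted p = 0.0159), Tmsb10 (-0.55) and Tmsb4x (-0.54), and the filament-severing Cfl1 (cofilin 1, -0.64). This count was 2 without the WT 3 h or KO 6 h array, 3 without the WT 0.5 or 6 h array, 4 without the KO 0.5, 4 or 8 h array, and 5 without the KO 1 or 2 h array or KO 0 h array 3. It was 0 without the KO 6 and 8 h arrays together, 2 without both 0.5 h arrays and 5 with only the compared groups fitted or with the replicate block. At 0 h 2 were lower (3.6% of all genes), Pfn1 (-1.03 ± 0.25, adjusted p = 0.0161) and Tmsb4x (-0.88), with 0 left without WT 0 h array 1 or KO 0 h array 3, and 1 without WT 0 h array 3 or KO 0 h array 2. It was also 0 on equalized widths by either method and with only the compared groups fitted, and 5 with 1 probe per gene. In late WT cells 4 were lower (3.67% of all genes), including Coro1c (-1.21 ± 0.22) and Pfn1 (-0.81), and in late KO cells also 4 (6.8%), including Gsn (-0.85) and Dstn (-0.85). The WT count was 1 without WT 0 h array 1 or 3 or the WT 4 or 8 h array, and 2 without the WT 6 h or KO 4 h array or KO 0 h array 2. It was 1 on equalized widths by either method and with only the compared groups fitted. The late WT call of Pfn1 was lost on equalized widths (-0.66 and -0.43, adjusted p = 0.0534 and 0.226) and without 1 array in 8 of 20 cases. The KO count was 1 without KO 0 h array 1, 2 without the KO 6 or 8 h array, 0 without both of these and 7 without the WT 0.5 h array. Limk1, whose kinase inactivates cofilin, rose in both (0.62 and 0.94). In WT cells this call was lost on equalized widths (0.52 by either method, adjusted p = 0.0633 and 0.0690), with only the compared groups fitted (0.114), and without WT 0 h array 2 or the WT 8 h array (0.0570 and 0.0604).

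Genes that start new filaments, the ARP2/3 complex and its activators and others, were lower in heated KO cells in 5 of 17 cases. These included Spire1 (-0.84 ± 0.14, adjusted p = 0.000534), Arpc5 (-0.80) and Arpc4 (-0.71). The count was 1 without the WT 3 h or KO 6 h array, 2 without the WT 0.5 h array and 3 without the WT 6 h or the KO 0.5, 1, 2 or 8 h array. It was 1 without both 0.5 h arrays or without the KO 6 and 8 h arrays, and 3 with quantile normalization. In late cells Arpc1a was lower in both lines (-0.85 ± 0.16 in WT and -0.66 in KO). Of 4 other measured members of the actin family, Actr1a, an actin-related subunit of dynactin, fell in late KO cells (-0.94 ± 0.22, adjusted p = 0.0100), and none was called in KO against WT cells. Without KO 0 h array 1 or 3, or without the KO 6 and 8 h arrays together, that call was lost.

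SRF and MRTF genes and their known targets went both ways. Of 30 measured, 5 were lower in unheated KO cells (median -0.12, against 0.05 for all genes, of which 3.6% were lower), among them Cnn1, which encodes the filament-binding calponin 1 (-1.45 ± 0.25, adjusted p = 0.00185), Ccn1 (-1.46), Tagln2 (-1.15) and the non-muscle myosin gene Myh9 (-0.72). In heated KO against WT cells 5 were lower (median -0.11, against 0.02 for all genes), led by Tagln2 (-1.23) and Cnn1 (-1.30). Fosl1 and Fhl2 were also lower (-1.04 to -0.85 and -0.57 to -0.43 on leaving out each array in turn). The immediate early gene Egr1 was the 1 higher (1.04 ± 0.31, adjusted p = 0.0382), where 6.07% of all genes were lower and 4.19% higher. Fosl1 thus lay lower in heated KO than in heated WT cells, opposite to Egr1. In late KO cells 7 were lower and 3 higher (median -0.35, against -0.02), where 6.8% and 3.86% of all genes were. The lower ones included Mrtfa (-1.14 ± 0.25, adjusted p = 0.00669), Srf (-0.84 ± 0.21, adjusted p = 0.0145), Tgfb1i1 (-0.97) and Myl9 (-1.07). The higher ones were Egr1 (2.79 ± 0.44, adjusted p = 0.000909), Fos (1.34) and Fosl1 (0.98), also immediate early or growth factor induced genes. The count of lower genes was 2 and 4 without KO 0 h arrays 1 and 3 and 3 without the KO 6 or 8 h array, and 1 without both. Between lines it was 3 at 0 h without KO 0 h array 2, 2 at 0 h with only the compared groups fitted, and 8 in the heated arrays without the WT 1 h array. In late WT cells 4 were lower (3.67% of all genes), including Tgfb1i1 (-1.08) and Myh9 (-0.64), and Fosl1 was higher (0.94), while Srf did not pass (-0.66, adjusted p = 0.0605). The lower count was 2 without WT 0 h array 1 or the WT 4, 6 or 8 h array, 1 with scaled widths and 0 with only the compared groups fitted.

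The other filament systems, tubulins and intermediate filaments, had 0 of 16 genes called by limma between lines, at 0 h and heated. At an unadjusted p under 0.05 there were 0 at 0 h and 6 in the heated arrays, where 13 of 16 differences lay below 0 (median -0.24). The 0 h count became 2 with 1 probe per gene. The heated count of lower genes became 5 without the WT 2 h array, 3 without the KO 3 h array, 2 without the WT 4 h array and 1 in 6 other cases of 1 array left out. It was 4 with the replicate block, 2 with scaled widths (and 1 higher) and 1 with no centring. In late cells 4 of 16 fell in WT (median -0.39, against -0.02 for all genes) and 8 of 16 in KO (median -0.80, against -0.02), where 3.67% and 6.8% of all genes were lower. Tuba1b fell by 1.26 ± 0.32 in WT and by 2.06 ± 0.32 in KO cells (log2). Tuba1a, Tuba1b and Tuba1c are near copies that can share bound transcripts. The WT count was 1 without WT 0 h array 3 or the WT 4 or 8 h array, 2 with quantile normalization, and 0 with scaled widths or with only the compared groups fitted. The KO count was 5 without KO 0 h array 1 or 3 or the KO 4 h array, and without the KO 6 and 8 h arrays together.

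Actin genes are often used to normalize expression assays, so their spread was set beside that of 14 other common reference genes. Over the 20 arrays the SD of the centred log2 ratio was 0.867 for Actg1, 0.653 for Acta1, 0.637 for Actb, 0.573 for Acta2 and 0.303 for Actc1. Actg1 is 1 probe and the others are means of 2 to 13, so these SDs are not on equal terms. Actb probe 9017 alone ran from -0.57 to 4.13, and Actg1 from 0.94 to 3.98. The median of all genes was 0.386, and 85.3% of genes varied less than Actb. Tbp (0.191), B2m (0.335), Eef1a1 (0.363) and Sdha (0.366) varied less than that median, and Hprt (0.676) and Tfrc (0.661) varied more than Actb. Sdha was nevertheless called lower in late KO cells (-0.76 ± 0.15, adjusted p = 0.00420). In heated KO against WT cells 8 of the 14 were also lower, including Pgk1 (-0.93 ± 0.12), Gapdh (-0.71 ± 0.11) and Rplp0 (-0.81 ± 0.14), and 1, B2m, was higher (0.43), where 6.07% of all genes were lower. The lower count was 5 with scaled widths, without both 0.5 h arrays and without the KO 6 and 8 h arrays. The count of higher genes was 0 in the last 2 of these settings and with the replicate block. Gapdh was at 0.040 and not called when 1 probe stood for each gene. At 0 h 5 of the 14 were lower in KO and 0 higher (median -0.58), where 3.6% of all genes were lower. Tfrc, Pgk1, Rplp0 and Rpl13a were among them. In late KO cells 5 were lower and 1 higher (median -0.35, with 6.8% of all genes lower). In late WT cells 2 were lower and 1 higher (median -0.25, with 3.67% lower). Over all settings these lower counts ran from 1 to 8, 1 to 6 and 0 to 3, in this order.

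**Figure D5:**
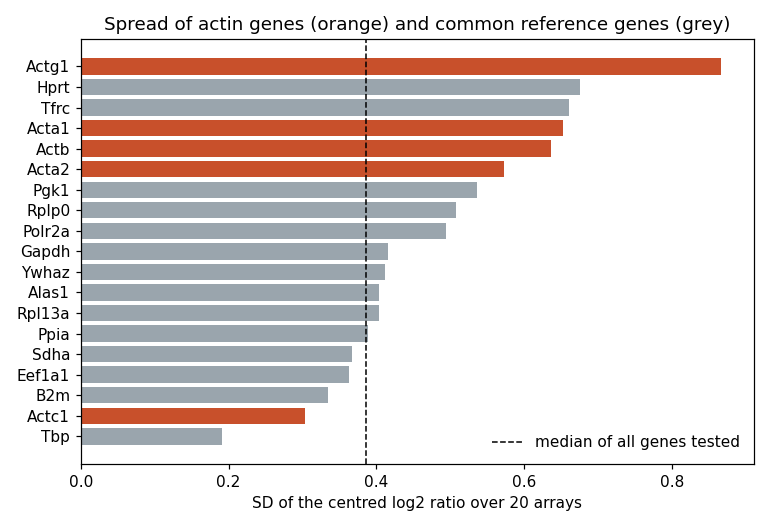
SD of the centred log2 ratio over the 20 arrays (x axis) for the 5 actin genes (orange) and 14 common reference genes (grey), with the median of all genes tested as a dashed line (0.386). The actin genes but Actc1 lie to the right of the line. Actc1, a mean of 10 probes that did not move alike, lies to its left. Actg1, with the largest SD, rests on 1 probe.

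Array width moved with some of these groups. The median absolute centred value was 0.46 to 0.57 on late KO arrays, 0.55 to 0.75 on late WT arrays, 0.73 to 0.75 on unheated WT arrays and 0.54 to 0.76 on unheated KO arrays. With widths made equal, late KO cells still had lower Actb (-0.93 by quantile normalization and -0.78 by scaling, adjusted p = 0.00437 and 0.0202) and Acta1 (-1.08 and -0.95). Actg1 no longer passed (-1.40 and -1.11, adjusted p = 0.0507 and 0.180). The heated KO against WT differences still passed for Actb (-0.55 and -0.59), Acta2 (-0.86 and -0.86) and Acta1 (-0.64 and -0.68).

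Markers of other cell types were read beside the actins. Of 18 measured genes that mark skeletal and heart muscle, 0 were called by limma in any of the 8 comparisons (0 to 4 at an unadjusted p under 0.05), and their mean, with each gene set to average 0 over the 20 arrays, lay between -0.27 and 0.23 on every array. Of 6 smooth muscle markers, 1 was called lower in KO, Cnn1, at 0 h and in heated arrays. Cnn1 is also among the SRF and MRTF targets above, so these lists are not independent. In unheated KO against WT cells 3.6% of all genes were called lower and 3.04% higher, and in heated ones 6.07% and 4.19%. Of 9 fibroblast markers, 2 were higher and 1 lower in unheated KO cells, and 2 higher and 2 lower in heated ones. From 0 h to the late times 8 of the 9 had differences below 0 in each line. In WT 1 was called lower (Pdgfra, -0.63 ± 0.19, with 3.67% of all genes) and in KO 1 (Col1a2, -0.59 ± 0.17, with 6.8%). The mean of the 9 markers ran from 0.05 to 0.40 on unheated and from -0.37 to 0.02 on late WT arrays. On KO arrays it ran from 0.17 to 0.29 unheated and from -0.33 to 0.0024 late, without overlap in either line. Of 7 macrophage markers 2 were lower in KO at both, and their mean on the same scale was 0.12 to 0.39 in unheated WT and -0.20 to -0.07 in unheated KO arrays. With heat the macrophage marker Fcgr1 was lower in WT cells, early (-1.59 ± 0.26, adjusted p = 0.0383) and late (-1.41 ± 0.24, adjusted p = 0.00380), and Lyz2 was higher in late KO cells (0.66 ± 0.20, adjusted p = 0.0451). Whether these genes are expressed at all cannot be read from a ratio to a pool, and their part in the actin results was not tested.

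The table held 39037 to 42220 values per array and 3.28% of values were missing. Before centring, medians of the arrays ran from -0.53 to -0.18. Any 2 arrays had a Pearson r over all probes between 0.423 and 0.805. Precision is limited by how few arrays there are. Fitted median shifts of all genes lay between -0.05 and 0.05 in the 8 comparisons.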

How the data were processed

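Two-colour ratios of 20 arrays were taken from the deposited series table. The deposited numbers are taken as log2 of sample (Cy5) over pool (Cy3), per the labels' channels. No source names the base. A value reached 10.2 in size, beyond the 4.82 that 16-bit signals could give in log10, while natural logs remain possible and would make the folds too small. The authors' treatment of the spots (background, filters, normalization), not given in the sources used here, could not be checked.

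Each array was centred on its median. Probes were named by the platform's probe table (21701 list 1 gene, 1124 several, the rest none), and 21650 gene identifiers were found in RefSeq GRCm38.p6. The fit took the 40453 probes that had 2 or more values per group. A gene was the mean of its 1-gene probes, each relative to its own mean over arrays (10625 genes). limma 3.58.1 in R 4.3.3 (lmFit, eBayes, prior degrees of freedom 3.36, two-sided) fitted 1 model to all 20 arrays, with Benjamini-Hochberg adjustment over all genes or probes and a threshold of 0.05. The heated comparison weights early and late differences by their 3 and 4 times. Alternatives changed the centring, probe choice, filter on missing values, arrays fitted and a block for 0 h number and time, and left out each array in turn. Genes named outside the actins were up to 4 of smallest p per list and comparison among those called, plus the 5 nearest by correlation. Fos, Srf, Myl9, Egr1 in heated cells, B2m and the second and later fold changes of a gene already named fall outside that rule: these were picked with their values known. The members and lists were chosen with earlier results of these data known. Promoter windows are RefSeq's. Actb had no window there.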

Additional observations from a re-analysis of the deposited data

How the results depend on the processing

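Over 1220 values of the 5 actin genes under the alternatives, 1134 kept direction and side of the threshold, 32 lost a call, 14 gained one and 40 changed sign. In the 4 comparisons with calls, 607 of 610 values lay below 0. The heated KO against WT calls of Actb, Acta2 and Acta1 held in each alternative run. With no centring, Actb was -0.80 at 0 h and -0.72 in late WT (both lost), -0.0044 in early KO, Actg1 -1.37 in late KO (lost), and the early response difference 0.12 for Acta1 and 0.0033 for Actc1. With quantile normalization, Actb was -0.53 at 0 h and -0.59 in late WT, Actg1 0.077 at 0 h and -1.40 in late KO (lost), Acta1 0.047 in early WT and 0.11 in the early response, Acta2 -0.81 in late KO (gained), Actc1 0.044 in the late response, and actin probes called lower 3 at 0 h and 3 in late WT. With width scaling, Actb was -0.51 at 0 h, -0.40 in late WT and -0.015 in early KO, Actg1 0.067 at 0 h, 0.0065 in late WT and -1.11 in late KO (lost), Acta2 -0.77 in late KO (gained), Acta1 0.12 in the early response, Actc1 0.059 in the late response, and actin probes 3 at 0 h and 1 in late WT. With 1 probe per gene, Acta2 was -0.84 at 0 h and -0.84 in late KO, Actc1 -0.65 heated and -0.72 in late KO (all gained), Acta1 0.056 in early KO, Actc1 0.31 and 0.42 in the early and late response, Gapdh 0.040 heated and Gsn 0.15 in late KO. With a value on every array, Acta2 was -0.057 in early WT and -1.03 in late KO (gained), and Actc1 0.18 in the late response. With only the compared groups fitted, Actb lost its calls at 0 h (-0.91, adjusted p = 0.0811) and in late WT (-0.78, adjusted p = 0.101). Without the 0.5 h arrays, Acta2 was -0.18 in early WT, 0.0018 in early KO and -0.18 in the early response, Acta1 -0.68 in late WT (gained) and Actb -0.13 in early KO. Without the KO 6 and 8 h arrays, Actb was -0.78 in late WT (adjusted p = 0.0537) and -0.90 in late KO, Actg1 -1.34 and Acta1 -0.96 in late KO (all lost). Without probes of a 0 h SD of 0.5 or more, added after seeing the data, Acta2 was -1.09 at 0 h (a test not independent of that choice), -1.13 in late KO, Actc1 -0.52 heated (all gained), Acta2 -0.25 in early WT and -0.080 in the early response, Actb -0.020 in early KO and Actc1 0.15 in the late response. Where construction does not show why, the cause was not tested.

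Leaving out each array gave these ranges where a call or sign changed. At 0 h Actb was -0.996 to -0.82. Heated Actc1 was -0.40 to -0.28. In late WT Actb was -0.87 to -0.68 and Acta1 -0.77 to -0.53. In late KO Actg1 was -1.62 to -1.32 and Acta2 -0.95 to -0.59. In early WT Acta2 was -0.18 to 0.30. In early KO Actb was -0.13 to 0.25, Acta1 -0.15 to 0.074 and Actc1 -0.22 to 0.10. Early response differences were -0.15 to 0.33 for Acta2 and -0.47 to 0.043 for Acta1, and the late one was -0.23 to 0.18 for Actc1.

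Deviations from the group mean over 9459 genes correlated little between lines at the same 0 h number or time (r of -0.02 to 0.06). Heated arrays matched in this way still share the time of heat. A correlation over so many genes does not describe the actin genes alone. With a replicate block, adjusted p was 0.0121 for Actb at 0 h and 0.00201, 0.00688 and 0.00426 for heated Actb, Acta2 and Acta1, and no member's call changed. The block moved the count of genes at 0 h from 705 to 519.

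With no centring the median difference of all genes was 0.16 at 0 h, 0.19 in early WT, -0.12 in early KO and 0.31 in the early response. Counts over all genes moved too. At 0 h 382 lower and 323 higher became 286 and 408 with no centring, 232 and 376 with quantiles and 225 and 295 with scaling. In late WT 390 and 382 became 222 and 336, 202 and 260, and 147 and 224. In late KO 723 and 410 became 463 and 419 with no centring, and heated 645 and 445 became 586 and 600 with quantiles. With only the compared groups fitted, the counts at 0 h and in late WT were 109 and 164. Without the KO 6 and 8 h arrays the late KO count was 220.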
